A study of Mus musculus with 20 samples.

Results

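The 41 genes described here encode the machinery of DNA replication and the start of S phase. They were taken by name from a list, and all 41 were found among the 45318 genes of the count tables and passed the filter on low counts. RNA with poly(A) tails was sequenced from 20 mouse mammary samples of strain FVB. Normal mammary gland organoids (wild type, called WT organoids; n = 3) are fragments of gland kept for 6 days in matrigel, which is made of basement membrane proteins, with FGF2 added as growth factor. MMTV-PyMT mice carry polyoma virus middle T antigen behind the mouse mammary tumor virus promoter, which is active mainly in mammary epithelium. Their tumors gave 30 µm cryosections (PyMT tumor sections, n = 3), organoids taken straight after preparation (day 0, n = 3) and organoids titled day 6 (n = 3). A further 2 PyMT organoid libraries have no day in their titles and the same 6 days of culture in their labels (undated, n = 2); they were averaged with the day 6 group, at equal weight, as 6 day PyMT organoids. MMTV-Neu-NDL organoids (n = 3, 6 days) express an activated Neu, the rodent ErbB2 receptor, behind the same promoter. MMTV-Cre;Flox-Neo-Neu-NT tumor sections (n = 3, called Neu-NT) come from mice in which Cre, also driven by MMTV, removes a floxed Neo cassette and so turns on another activated Neu. No uncultured normal gland was analysed here, so sections and WT organoids differ in tissue, culture and genotype, which cannot be told apart. The labels do not say that replicates came from separate animals, and p-values then measure the spread between these samples.

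Replication starts from origins marked by the origin recognition complex, on which Cdt1 helps to load the ring of Mcm2 to Mcm7 in G1. When E2F factors and cyclin E with its kinase drive cells into S phase, Cdc45 and the GINS complex join the ring and turn it into the active helicase. Primase and polymerase alpha then start each strand, the Rfc complex loads the sliding clamp Pcna, polymerases delta and epsilon extend, and Fen1 and Lig1 join the Okazaki fragments. Ribonucleotide reductase, Tyms and Dut supply clean nucleotides, and the CAF-1 complex lays histones behind the fork. Genes for these steps are classic E2F targets, so their summed RNA is widely read as a sign of how many cells of a sample are cycling. In such bulk samples, fewer cycling cells and less RNA per cell cannot be told apart.

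The libraries held 17478357 to 48341438 reads counted on genes. Levels are in CPM, a gene's counts scaled to a common library size, with sizes adjusted by TMM, a scaling that assumes most genes do not change. Luminal epithelial markers (6 genes) summed to between 3520 and 10100 CPM in every group, so each group carried the labelled mammary epithelium. Neu-NT section replicate 3 stood apart from the other 2 Neu-NT sections in markers of other cells, with 8 basal markers at 2860 CPM in all (134 and 85.8 in replicates 1 and 2) and 8 macrophage markers at 1750 CPM (747 and 633). PyMT day 6 organoid replicate 3 also stood apart, with 8 fibroblast markers at 2750 CPM in all (71.3 and 63.0 in replicates 1 and 2) and 8 endothelial markers at 175 CPM (5.64 and 5.46). The main results that rest on these libraries are given with and without them.

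Promoters of the replication genes are shown first, since many of these genes are known E2F targets. In the 250 bases before the start site, E2F words (the letters TTTGGCG, the letters TTTCGCG, the letters TTTCCCG or the letters TTTGCCG, on either strand) were found for 10 of the 33 members with an entry in the RefSeq promoter table (GRCm38.p6), which is 30.3%, against 6.34% of all 27025 genes in that table. The 10 genes were Mcm5, Mcm6, Mcm7, Gins3, Orc1, Rfc3, Pola1, Rpa1, Fen1 and Chaf1a. Mcm4, Gins1, Gins2, Gins4, Rfc2, Prim2, Pole and Ccne2 had no entry. The CCAAT word, on either strand, was in 20 of the 33 (60.6%) against 37.5% of all genes, and TTTGAA, the letters of the CHR element of late cell cycle genes, in 4 of 33 (12.1%) against 18.3%. The 160 bases before the start follow for Mcm5, Mcm6 and Chaf1a, which have E2F words, and for Chaf1b, the partner of Chaf1a that was called higher in Neu-NT sections and has none. Capitals mark the E2F words, some of which overlap each other, and every line is the gene's own strand, 5′ to 3′.
Mcm5 (chr8:75109349-75109508, plus strand): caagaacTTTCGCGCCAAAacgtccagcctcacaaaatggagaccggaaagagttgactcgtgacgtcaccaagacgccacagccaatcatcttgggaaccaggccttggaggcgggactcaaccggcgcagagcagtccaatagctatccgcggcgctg
Mcm6 (chr1:128359706-128359865, minus strand): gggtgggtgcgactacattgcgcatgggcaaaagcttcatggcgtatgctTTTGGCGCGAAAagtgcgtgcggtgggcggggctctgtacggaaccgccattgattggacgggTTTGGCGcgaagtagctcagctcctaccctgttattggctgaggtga
Chaf1a (chr17:56040256-56040415, plus strand): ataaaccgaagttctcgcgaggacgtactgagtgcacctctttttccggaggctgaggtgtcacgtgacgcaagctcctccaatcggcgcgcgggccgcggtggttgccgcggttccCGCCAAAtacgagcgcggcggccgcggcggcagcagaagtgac
Chaf1b (chr16:93883741-93883900, plus strand): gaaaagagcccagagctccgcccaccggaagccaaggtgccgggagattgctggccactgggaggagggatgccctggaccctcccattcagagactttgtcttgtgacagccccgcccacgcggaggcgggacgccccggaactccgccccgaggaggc
In Mcm5 and Mcm6 a pair of opposed words shares bases, and Mcm6 has another word closer to its start. A word is only a match of letters, and a window without one says nothing about the factor.

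With all 20 libraries, few replication genes passed the test between the tumor models and normal organoids grown in culture. In the edgeR quasi-likelihood test over all 20 libraries, a member was called when its Benjamini-Hochberg adjusted p, taken over all 18698 genes tested, was under 0.05. The share of all genes that met the same rule stands beside each count. In 6 day PyMT organoids against WT organoids 0 of 41 members were called, where 1.40% of all genes were higher and 2.49% lower. At an unadjusted p under 0.05 there were 2 (4.88%, against 20.6% of all genes), and by DESeq2 1 higher and 1 lower (4.79% and 4.84% of all genes). In Neu-NDL against WT organoids 0 of 41 were called, where 2.47% of all genes were higher and 2.06% lower. There 4 had an unadjusted p under 0.05 (9.76%, against 20.8%), and DESeq2 called 2 higher and 0 lower (6.58% and 4.41% of all genes). For PyMT tumor sections against WT organoids the count was also 0 of 41, where 6.45% of all genes were higher and 6.05% lower. Unadjusted there were 7 (17.1%, against 30.3%), and by DESeq2 1 higher and 2 lower (11.2% and 8.72% of all genes). Neu-NT tumor sections had 2 members higher and 1 lower than WT organoids, which is 4.88% and 2.44% of the members, where 10.5% of all genes were higher and 8.47% lower. Unadjusted there were 9 (22.0%, against 33.5%), and by DESeq2 5 higher and 2 lower (14.1% and 10.5% of all genes). These 4 comparisons share the 3 WT libraries. The median log2 fold change over the members was 0.12, 0.16, -0.05 and 0.29 in that order, and over all genes 0.01, 0.02, 0.03 and 0.03.

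The other 4 comparisons gave as few. Between 6 day and day 0 PyMT organoids 1 of 41 members was higher and 0 were lower, where 4.10% of all genes were higher and 4.12% lower. Unadjusted there were 2 (4.88%, against 26.8%), and by DESeq2 1 higher and 0 lower (7.92% and 7.93% of all genes). Day 0 organoids and the PyMT sections, both taken without culture, had 0 of 41 called, where 0.428% of all genes were higher and 0.0160% lower. There 0 members had an unadjusted p under 0.05 (6.95% of all genes did) and DESeq2 called 0 (0.813% and 0.358% of all genes). In PyMT against Neu-NT sections 1 member was lower and 0 were higher, where 4.57% of all genes were higher and 5.13% lower. Unadjusted, 13 members passed (31.7%, against 26.1% of all genes), the 1 comparison in which the members' share was the larger, and DESeq2 called 3 lower and 0 higher (7.73% of all genes were higher and 8.28% lower). In 6 day PyMT against Neu-NDL organoids 0 were called, where 2.42% of all genes were higher and 4.70% lower. Unadjusted there were 6 (14.6%, against 25.5%), and by DESeq2 2 higher and 2 lower (5.93% of all genes were higher by DESeq2, and more were lower). With all 20 libraries the share of members called at an adjusted p under 0.05 was below that of all genes in all 8 comparisons, in the higher and in the lower direction. But 1 member is already 2.44% of the 41. Where fewer of all genes than that passed, a share below theirs could only be 0 calls. Without Neu-NT replicate 3 the members' share was the larger in both comparisons of Neu-NT sections. There 24.4% of the members were higher than in WT organoids (10.9% of all genes) and 29.3% lower in PyMT than in Neu-NT sections (8.39% of all genes). The median log2 fold change over the members was 0.10, 0.12, -0.35 and -0.12 in these 4, and over all genes -0.02, -0.02, -0.01 and -0.02. Of the 41 members, 33 had a negative value in PyMT against Neu-NT sections, among them all 6 Mcm ring subunits, all 6 genes that activate the ring, all 7 primase and polymerase genes and both CAF-1 genes. Without Neu-NT replicate 1, 10 of the 41 changed sign, Mcm5, Pola1, Pola2, Prim1, Pold1, Pole and Chaf1a among them. These comparisons share libraries with one another and with the first 4.

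Whether the libraries of the 2 sides overlap gives a second view, without a threshold on p. In 6 day PyMT against WT organoids 1 member lay above without overlap and 0 below, beside 6.36% and 9.87% of all genes. In Neu-NDL against WT organoids 3 lay above and 4 below (17.0% and 19.2% of all genes). PyMT sections had 2 above WT and 6 below (23.2% and 23.1%), and Neu-NT sections 5 above and 2 below (19.4% and 21.3%). From day 0 to 6 days 2 members lay above and 0 below (5.44% and 6.36%), and from PyMT sections to day 0 also 2 and 0 (7.60% and 10.6%). PyMT sections lay above Neu-NT sections for 0 members and below for 7 (14.5% and 12.9% of all genes). For 6 day PyMT against Neu-NDL organoids the counts were 2 and 2 (6.36% and 6.68%).

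Intervals show what size of difference the data leave room for. The 95% interval of the fold change lay within 2-fold either way for 35 of the 41 members in 6 day PyMT organoids, 29 in Neu-NDL organoids, 30 in PyMT sections and 27 in Neu-NT sections, each against WT organoids. For day 0 organoids against PyMT sections it did so for 36 members, and for PyMT against Neu-NT sections for 21. The count was 37 for 6 day against day 0 PyMT organoids and 32 for 6 day PyMT against Neu-NDL organoids. The median distance from the fold change to either end of its interval was 0.50 to 0.56 on the log2 scale in all 8 comparisons. The members left outside those limits were not shown to be alike or to differ by that much.

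**Figure D1:**
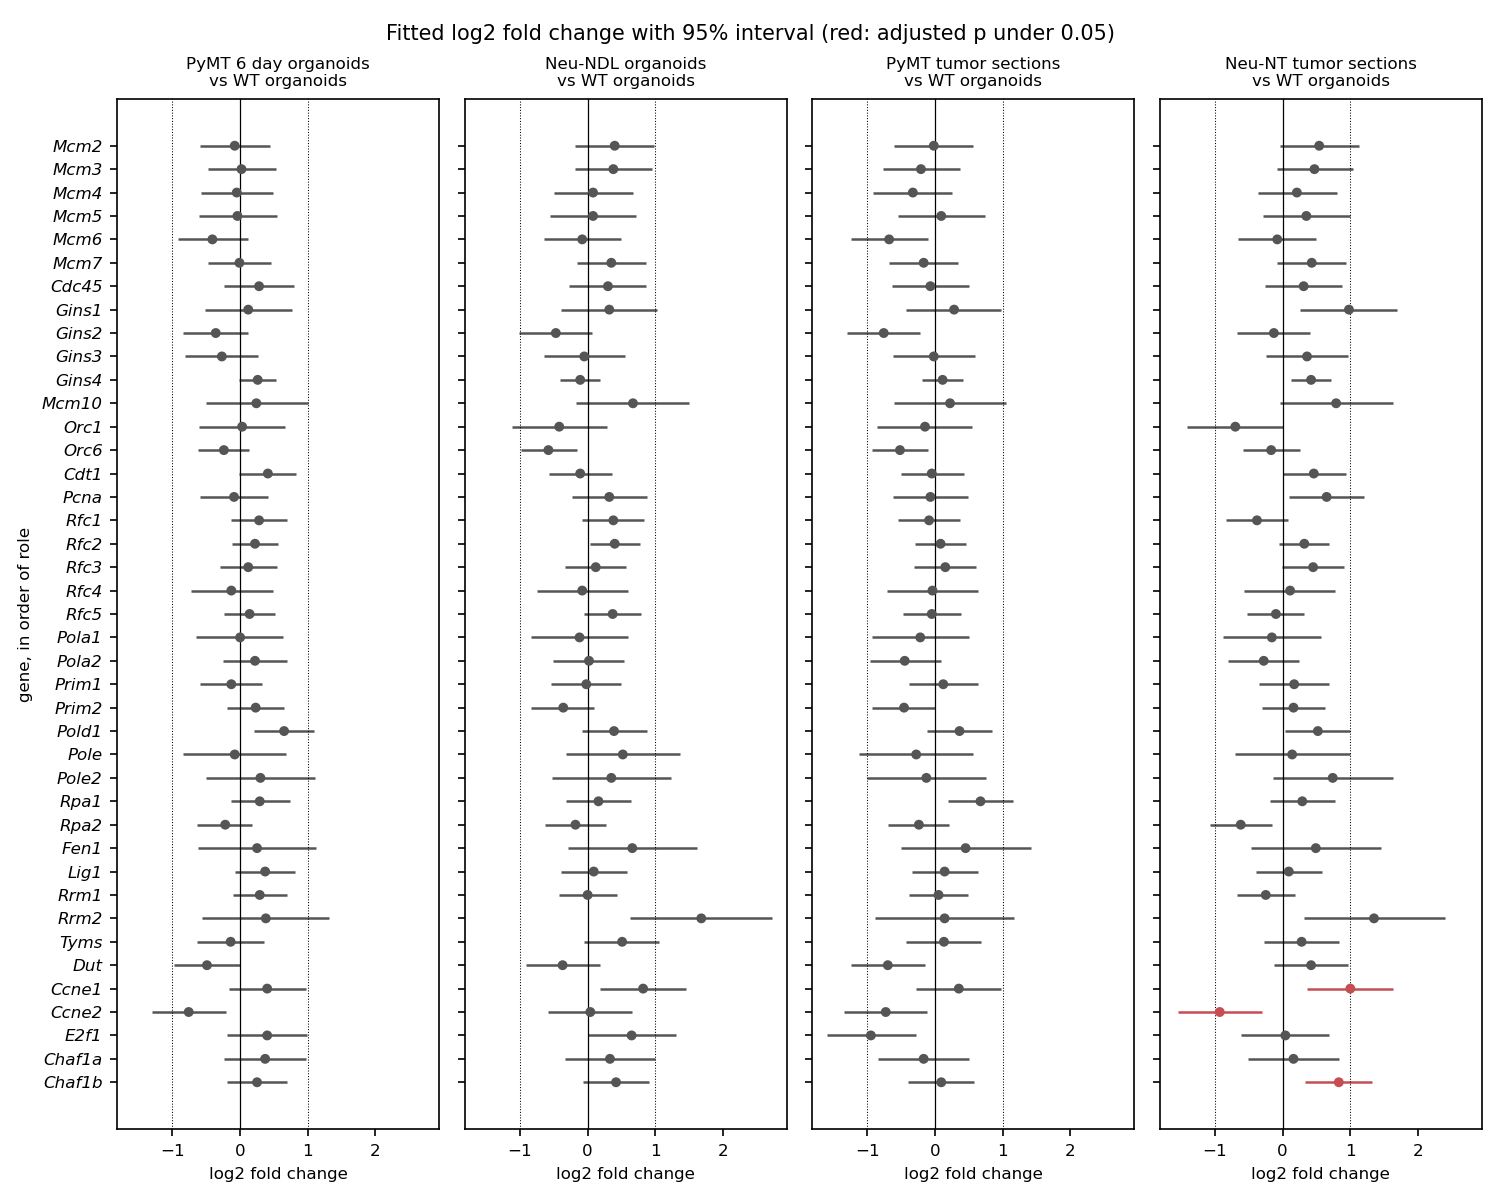
Fitted log2 fold changes of the 41 genes (rows, in order of role) against WT organoids in 4 comparisons, with 95% intervals as lines; dotted lines mark a 2-fold difference and red marks the 3 called genes. Ccne1, Ccne2 and Chaf1b in Neu-NT sections are the called genes, and Rrm2 has the interval furthest to the right in both Neu groups.

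In Neu-NT sections the genes for the cyclins that start S phase changed in opposite directions. Ccne1 and Ccne2 encode cyclins E1 and E2, the partners of the kinase Cdk2 at the start of S phase. Ccne1 (ENSMUSG00000002068.13, chromosome 7, 38097984 to 38107534, minus strand, mm10) stood at 7.95, 6.08 and 4.52 CPM in WT organoids and at 17.5, 9.28 and 10.3 CPM in Neu-NT sections. All Neu-NT values lay above all WT values, and the gene was called (log2 fold change 1.00, SE 0.30, adjusted p = 0.0294). Neu-NDL organoids, at 10.4, 11.9 and 10.4 CPM, also lay above WT, and there the difference did not pass (log2 fold change 0.82, SE 0.30, adjusted p = 0.125). In PyMT tissue Ccne1 was at 6.67, 8.39 and 8.55 CPM in sections, 10.2, 11.6 and 5.82 at day 0, 11.6, 11.7 and 10.01 at day 6 and 5.47 and 6.52 in undated organoids. The undated libraries were close to WT, while those of day 6 were above it.

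Ccne2 (ENSMUSG00000028212.13, chromosome 4, 11191351 to 11204779, plus strand) ran the other way in Neu-NT sections, with 13.2, 11.98 and 8.33 CPM in WT organoids and 6.99, 5.68 and 4.97 CPM in these sections. It was lower there without overlap (log2 fold change -0.93, SE 0.29, adjusted p = 0.0374). PyMT sections had 5.87, 8.74 and 5.58 CPM, and 6 day PyMT organoids had 8.25, 10.1 and 5.59 at day 6 and 5.90 and 5.05 undated. In both the mean was below WT, 1 library overlapped, and neither passed (log2 fold change -0.73, SE 0.29, adjusted p = 0.104 for sections; log2 fold change -0.76, SE 0.26, adjusted p = 0.109 for organoids). Neu-NDL organoids were at 12.3, 11.98 and 10.2 CPM, with an interval of the log2 fold change of -0.58 to 0.65. The difference between 6 day PyMT and Neu-NDL organoids was -0.80 on the log2 scale, without overlap, and did not pass either (SE 0.26, adjusted p = 0.0717). Ccne2 overlaps Ints8 on the opposite strand in the annotation, and the strand setting of the counting is not given.

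E2f1 encodes the transcription factor that drives many of these genes and is itself an E2F target. E2f1 (ENSMUSG00000027490.14, chromosome 2, 154559407 to 154569892, minus strand) was lowest in PyMT tissue taken without culture, at 9.05, 11.6 and 14.7 CPM in sections and 16.2, 16.5 and 12.1 CPM at day 0. It stood at 34.3, 29.1 and 16.2 CPM in day 6 organoids and 34.5 and 32.8 in undated ones. From day 0 to 6 days E2f1 rose, the 1 member to do so (log2 fold change 1.00, SE 0.29, adjusted p = 0.0442). Day 6 replicate 3, the library rich in stromal markers, at 16.2 CPM lay within the day 0 range. In the same comparison 8 of 8 endothelial markers had negative log2 fold changes (median -3.44) and 3, Kdr, Tek and Vwf, were lower; they summed to 111 to 227 CPM at day 0, to 5.64, 5.46 and 175 at day 6 and to 6.91 and 6.85 undated. Macrophage markers (7 of 8 negative, median -1.68) summed to 364 to 540 CPM at day 0 and 96.8 to 599 in 6 day organoids, and 7 of 7 lymphocyte markers were negative (median -2.37). Basal, luminal, fibroblast and adipocyte markers of this comparison are given with the mitosis markers below. The part of all these markers in the result was not tested. WT organoids had 26.02, 21.4 and 20.7 CPM, and PyMT sections lay below all of them without passing (log2 fold change -0.95, SE 0.31, adjusted p = 0.0561). Neu-NDL organoids, at 31.8, 33.9 and 41.1 CPM, lay above all WT libraries, again without passing (log2 fold change 0.65, SE 0.31, adjusted p = 0.244). They also differed from WT in cell type markers. Of 8 basal markers 8 lay below without overlap and 4 were called (sums 110 to 570 against 2530 to 3310 CPM, 2.06% of all genes lower). Of 8 macrophage markers 7 lay above and 3 were called (408 to 1960 against 170 to 267 CPM, 2.47% of all genes higher). The part of these markers in the Neu-NDL differences was not tested. Neu-NT sections ranged widely, at 34.6, 21.5 and 13.6 CPM.

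The calls of these genes were lost when some single libraries were left out, and in most of those fits fewer of all genes passed too. Without Neu-NT replicate 1, WT replicate 2 or WT replicate 3 in turn the adjusted p of Ccne1 was 0.161, 0.0884 and 0.124. There 7.57%, 4.99% and 5.61% of all genes were higher, against 10.5% with all libraries. That of Ccne2 was 0.136, 0.107, 0.0577, 0.094 and 0.0852 without WT replicate 1, WT replicate 2 or Neu-NT replicates 1, 2 and 3 in turn. There 5.69%, 4.86%, 4.46%, 5.73% and 10.9% of all genes were lower, against 8.47% with all libraries. E2f1 passed in 1 of 8 such fits, the one without day 6 replicate 3 (log2 fold change 1.13, adjusted p = 0.0063, 10.3% of all genes higher). In the other 7 its adjusted p ran from 0.0723 to 0.165. There 0.359% to 2.65% of all genes were higher, against 4.10% with all libraries. With the replicate number as a block over day 0 and 6 day libraries the log2 fold change of E2f1 was 0.85 and did not pass (adjusted p = 0.136). Over day 0 and day 6 alone it was 0.76 with the block (adjusted p = 0.465) and 0.83 without it (adjusted p = 0.502). In these fits 0.0294%, 0% and 0% of all genes were higher.

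**Figure D2:**
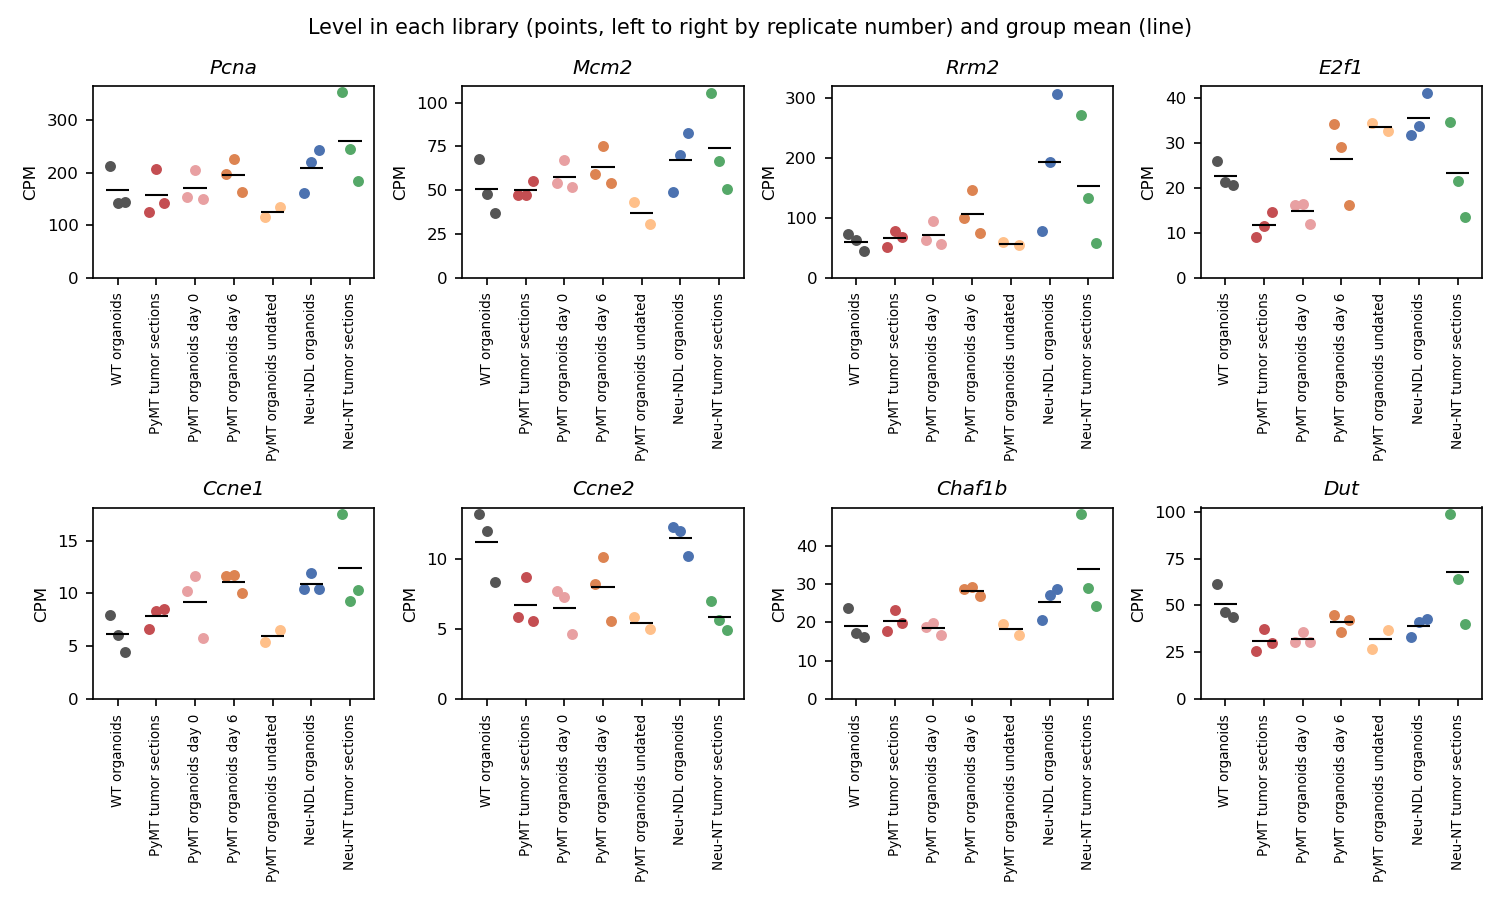
CPM of 8 replication genes in each of the 20 libraries (points, in order of replicate number within a group), with the group mean as a line; every axis starts at 0. Ccne1 and Chaf1b lie above WT in all 3 Neu-NT sections and Ccne2 below, and the 3 Neu-NT points of Pcna, Mcm2, Rrm2, E2f1 and Dut are spread from 184 to 353, 50.4 to 106, 57.5 to 272, 13.6 to 34.6 and 40.4 to 98.5 CPM.

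The 3 licensing genes among the members, Orc1, Orc6 and Cdt1, showed no call in any of the 8 comparisons. Orc6, the smallest subunit of the origin recognition complex, was at 30.3, 24.3 and 24.5 CPM in WT organoids and 19.9, 18.6 and 14.5 CPM in Neu-NDL organoids. It was lower there without overlap and did not pass (log2 fold change -0.58, SE 0.20, adjusted p = 0.102). PyMT sections stood at 15.6, 24.5 and 15.1 CPM (log2 fold change -0.52, SE 0.20, adjusted p = 0.0911). Orc6 overlaps Vps35 on the opposite strand. Orc1, the largest subunit of the complex, had the lowest level per kilobase of exon after Fen1 over the 20 libraries, 1.04 CPM per kilobase. It stood at 3.55, 4.22 and 3.25 CPM in PyMT and 3.71, 1.44 and 2.38 CPM in Neu-NT sections, the largest positive difference among members in that comparison (log2 fold change 0.55, SE 0.34, adjusted p = 0.325), with overlapping libraries. Cdt1, the loading factor that is degraded in S phase, differed from WT by -0.11 to 0.46 on the log2 scale.

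The 6 subunits of the Mcm2 to Mcm7 helicase ring had 0 calls in the 8 comparisons. Against WT organoids their log2 fold changes ran from -0.41 to 0.02 in 6 day PyMT organoids, from -0.08 to 0.40 in Neu-NDL organoids, from -0.68 to 0.09 in PyMT sections and from -0.08 to 0.54 in Neu-NT sections. Mcm2 stood at 67.8, 48.05 and 37.04 CPM in WT organoids, 47.4, 47.5 and 55.4 in PyMT sections, 54.2, 66.97 and 51.7 at day 0 and 59.5, 75.5 and 54.1 at day 6. Undated PyMT organoids had 43.2 and 30.6 CPM, Neu-NDL organoids 49.02, 70.3 and 82.4 and Neu-NT sections 106, 66.8 and 50.4. Every group overlapped WT, and the interval of the log2 fold change was -0.18 to 0.98 for Neu-NDL and -0.04 to 1.13 for Neu-NT. Between PyMT and Neu-NT sections all 6 subunits had negative log2 fold changes, -0.68 to -0.26, and 0 of the 6 passed; without Neu-NT replicate 1 Mcm5 was at 0.19.

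The genes that turn the ring into the working helicase, Cdc45, Gins1 to Gins4 and Mcm10, had 0 calls as well. Gins2, a GINS subunit, was at 25.2, 17.6 and 20.5 CPM in WT organoids; PyMT sections had 12.2, 14.6 and 10.4 CPM, lower without overlap and just short of the threshold (log2 fold change -0.76, SE 0.26, adjusted p = 0.06). Day 0 organoids had 14.5, 15.97 and 14.7 CPM, overlapping the sections (log2 fold change 0.28, SE 0.26, adjusted p = 0.914). Gins2 overlaps Gse1 on the opposite strand. Gins1 was the member of this group with the largest log2 fold change in Neu-NT sections, with means of 6.32 CPM in WT and 12.4 CPM there and no overlap, and it did not pass (log2 fold change 0.98, SE 0.34, adjusted p = 0.0527).

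The clamp Pcna, the gene of this set with the highest level per kilobase (77.8 CPM per kilobase of exon, mean of 20 libraries), was called in none of the 8 comparisons. It had 213, 143 and 144 CPM in WT organoids, 125, 208 and 143 in PyMT sections and 154, 206 and 151 at day 0. Cultured PyMT organoids held 198, 226 and 164 CPM at day 6 and 115 and 135 CPM undated. Neu-NDL organoids were at 161, 221 and 244 and Neu-NT sections at 353, 246 and 184 CPM. Neu-NT replicates 1 and 2 exceeded every other library of the series while replicate 3 lay within the WT range, and the difference from WT did not pass (log2 fold change 0.65, SE 0.26, adjusted p = 0.0967). The gene table also names 2 Pcna pseudogenes, which can draw reads away from Pcna. The 5 Rfc genes of the clamp loader differed from WT by -0.38 to 0.45 on the log2 scale over the 4 comparisons, with none called.

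The 7 primase and polymerase genes among the members gave 0 calls in the 8 comparisons. Pold1, the catalytic subunit of polymerase delta, had the largest log2 fold change in 6 day PyMT organoids against WT. It was at 28.6, 23.5 and 23.2 CPM in WT, 40.3, 45.3 and 36.9 at day 6 and 41.5 and 34.04 undated, the 1 member without overlap in that comparison, and it did not pass (log2 fold change 0.65, SE 0.21, adjusted p = 0.0932). Prim2, a primase subunit, was at 31.03, 31.4 and 19.1 CPM in day 6, 35.6 and 25.9 in undated and 17.8, 19.9 and 20.02 in Neu-NDL organoids (log2 fold change 0.59, SE 0.20, adjusted p = 0.0852). It had 17.1, 20.1 and 16.8 CPM in PyMT sections and 21.2, 25.5 and 20.8 at day 0, where all 3 libraries were higher (log2 fold change 0.32, SE 0.22, adjusted p = 0.859). Polymerase epsilon genes were among the most variable: Pole ran from 13.2 CPM in Neu-NT replicate 3 to 52.3 in Neu-NDL replicate 3, and Pole2 from 9.58 to 46.6 CPM between Neu-NT replicates 3 and 1.

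Rpa1, the large subunit of the protein that coats single-stranded DNA, was highest on average in PyMT tumor sections. It stood at 68.8, 58.5 and 51.7 CPM in WT organoids; PyMT sections had 89.3, 75.2 and 120 CPM, higher without overlap and short of the threshold (log2 fold change 0.67, SE 0.23, adjusted p = 0.0637). Day 0 organoids had 81.1, 73.2 and 90.4 CPM, day 6 organoids 80.7, 80.1 and 109.8 and undated organoids 61.1 and 57.6. The undated libraries fell within the WT range, unlike those of day 6. Fen1, the flap nuclease, was listed at only 0.830 to 2.73 CPM, 1058 counts over all 20 libraries. The annotation has Tmem258 and Gm10143 on the opposite strand over Fen1, and how reads on both genes were counted is not given, so its level is uncertain.

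Among the nucleotide supply genes, Rrm2 had the widest differences, none of them called. It encodes the small, S phase subunit of ribonucleotide reductase, the enzyme that makes deoxynucleotides. Rrm2 stood at 73, 63.6 and 44.3 CPM in WT organoids, 78.2, 194 and 307 in Neu-NDL organoids and 272, 133 and 57.5 in Neu-NT sections. All Neu-NDL libraries were above WT, replicate 1 only just, and the difference missed the threshold (log2 fold change 1.68, SE 0.50, adjusted p = 0.0641; interval 0.62 to 2.73). In Neu-NT sections replicate 3 lay within the WT range (log2 fold change 1.35, SE 0.49, adjusted p = 0.0662). PyMT sections were at 52.1, 79.1 and 68.2 CPM, day 0 organoids at 63.1, 95.1 and 57 and 6 day organoids at 99.3, 147 and 74.99 (day 6) and 59.9 and 54.5 (undated). The day 6 libraries lay above WT and the undated ones within its range. As a group, the 6 day PyMT organoids differed from Neu-NDL organoids by a log2 fold change of -1.30 that did not pass (SE 0.43, adjusted p = 0.0761). The large subunit gene Rrm1 was not called either: its log2 fold change against WT was 0.00 in Neu-NDL organoids (interval -0.43 to 0.44) and -0.25 in Neu-NT sections (interval -0.68 to 0.18).

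Dut encodes dUTPase, which keeps uracil out of DNA. Dut (ENSMUSG00000027203.12, chromosome 2, 125247190 to 125258608, plus strand) was at 25.6, 37.7 and 30.2 CPM in PyMT sections and 98.5, 63.9 and 40.4 CPM in Neu-NT sections. The sets did not overlap and the difference passed, the 1 call between the 2 tumor types (log2 fold change -1.12, SE 0.26, adjusted p = 0.0153). WT organoids, at 61.6, 46.5 and 43.9 CPM, lay within the Neu-NT range and above all PyMT sections, the latter without passing (log2 fold change -0.70, SE 0.26, adjusted p = 0.0822). The call was lost without PyMT section replicate 1 or 3 or Neu-NT replicate 1 (adjusted p = 0.073, 0.0546 and 0.0781). Tyms, thymidylate synthase, had the lowest log2 fold change of the members between 6 day and day 0 PyMT organoids. Its values were 42.3, 46.6 and 33.8 CPM at day 0, 39.98, 33.2 and 43.4 at day 6 and 23.1 and 21.5 undated (log2 fold change -0.47, SE 0.23, adjusted p = 0.207), with both undated libraries below all of day 0 and day 6 overlapping it.

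Chaf1b, a subunit of the CAF-1 histone chaperone, was the other member higher in Neu-NT sections. Chaf1b (ENSMUSG00000022945.8, chromosome 16, 93883901 to 93906115, plus strand) had 23.8, 17.2 and 16.1 CPM in WT organoids and 48.3, 28.9 and 24.2 CPM in Neu-NT sections, without overlap (log2 fold change 0.83, SE 0.23, adjusted p = 0.0216). PyMT sections were at 17.9, 23.3 and 19.9 CPM, lower than every Neu-NT section and short of the threshold (log2 fold change -0.73, SE 0.23, adjusted p = 0.0573). Levels of 18.9, 19.8 and 16.7 CPM were found at day 0, 28.6, 29.2 and 26.9 at day 6, 19.6 and 16.7 undated and 20.5, 27.1 and 28.7 in Neu-NDL organoids. Without Neu-NT replicate 1, WT replicate 2 or WT replicate 3 its adjusted p was 0.14, 0.0853 or 0.092. Its partner Chaf1a differed from WT by 0.16 in Neu-NT sections (adjusted p = 0.757), and by -0.24 without replicate 1.

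The members moved together from library to library within a group. Neu-NT section replicate 1 had the highest level of its group for 41 of 41 members and replicate 3 the lowest for 35, with a median ratio of 1.90 between the pair. Among WT organoids replicate 1 was highest for 38 members and replicate 3 lowest for 33, with a median ratio of 1.48. As a mean of log2 CPM over the 41 genes, the WT libraries ran from 4.51 to 5.04, the Neu-NT sections from 4.49 to 5.48, Neu-NDL organoids from 4.69 to 5.12, and day 6 PyMT organoids from 4.84 to 5.16. PyMT sections, from 4.53 to 4.75, day 0 organoids, from 4.63 to 4.91, and undated organoids, at 4.73 and 4.55, all lay within the range of the WT libraries. Across the 20 libraries, 21 of the 41 members had their highest value in Neu-NT replicate 1.

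After each group's mean was removed, 38 of 41 members had a correlation above 0.5 with the mean of the other 40 over the 20 libraries (median r = 0.78, range 0.32 to 0.96). These points share their libraries and scaling, and the values are a description. Neither they nor the orders within groups given above were compared with those of all genes. Mcm3 and Chaf1b (0.96), Cdc45 (0.95) and Mcm2 (0.94) followed the rest most closely. Rfc4 (0.32), Orc6 (0.40) and Fen1 (0.44) followed least. Rfc4 overlaps Eif4a2 and Orc6 overlaps Vps35, each on the opposite strand. Rrm2 (SD of log2 CPM 0.79), E2f1 (0.64), Pole2 (0.53) and Pole (0.52) varied most over the 20 libraries, and Rfc2 (0.21), Gins4 (0.22) and Rfc5 (0.26) least.

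**Figure D3:**
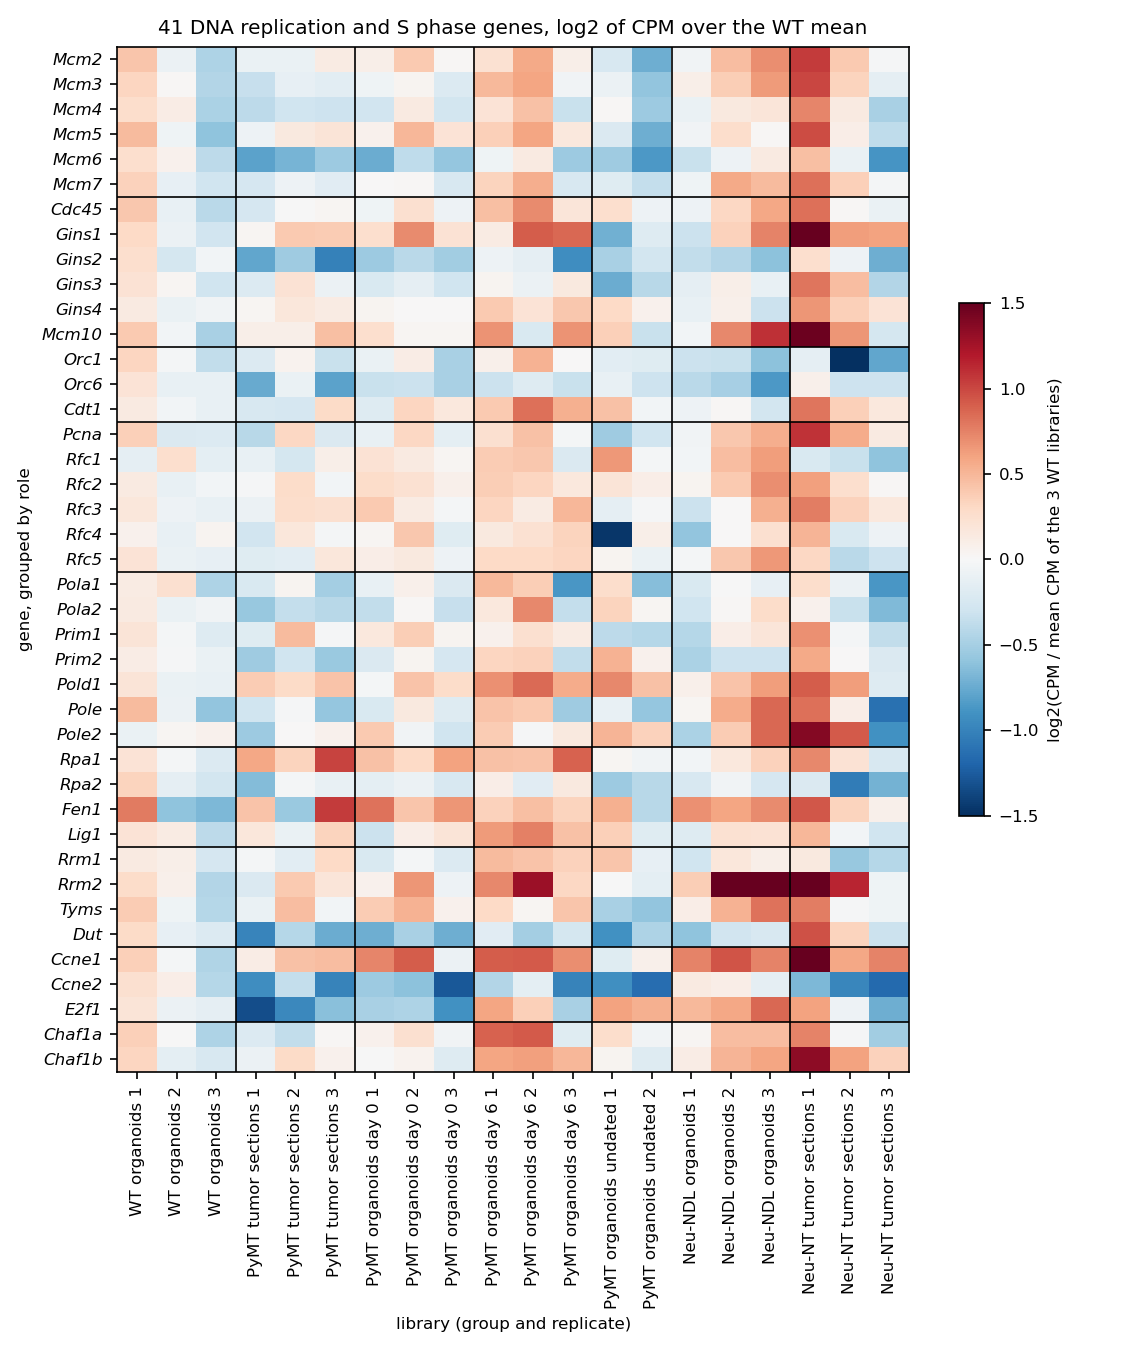
Each cell is the log2 ratio of a gene's CPM (rows, grouped by role) to its mean in the 3 WT libraries, for the 20 libraries (columns, grouped as labelled); red is higher and blue lower. Whole columns share a colour, red in Neu-NT section 1 (37 of 41 members above the WT mean) and mostly blue in WT replicate 3 (2 of 41 above).

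**Figure D4:**
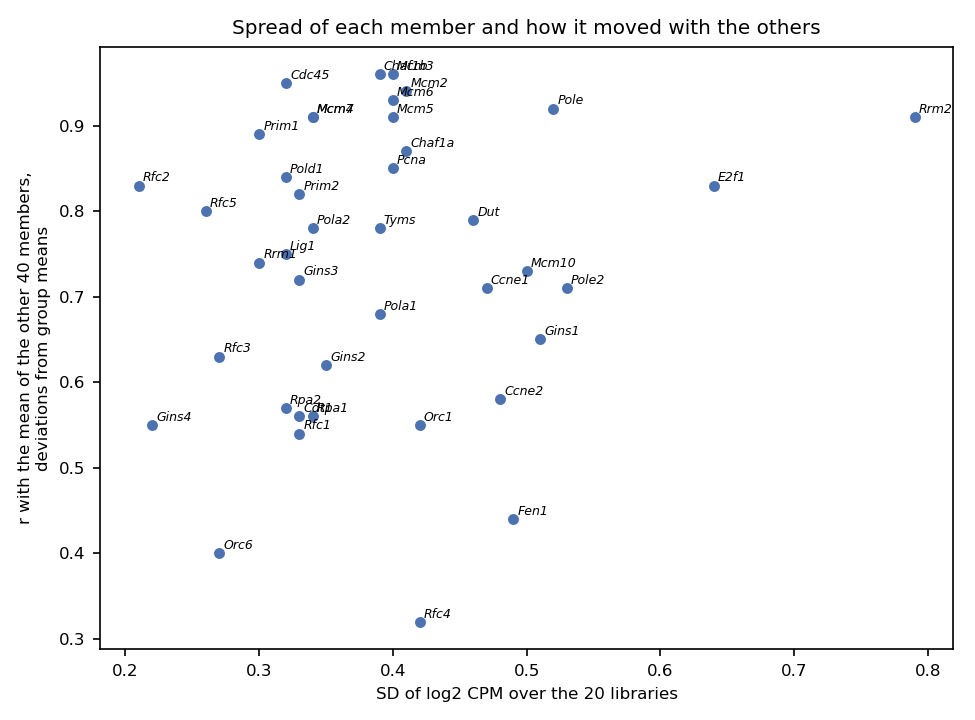
Each point is 1 of the 41 genes, by the SD of its log2 CPM over the 20 libraries (x axis) and its correlation with the mean of the other 40 genes after group means were removed (y axis). Rrm2 and E2f1 vary most, and Rfc4, Orc6 and Fen1 sit lowest in correlation.

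The counts in Neu-NT sections depended on replicates 1 and 3. Without replicate 3 10 members were higher than WT organoids (Ccne1, Chaf1b, Dut, Gins1, Gins4, Mcm10, Pcna, Pold1, Pole2 and Rrm2) and 0 lower, where 10.9% of all genes were higher and 10.9% lower. Leaving out PyMT day 6 replicate 3 as well gave 13 higher (31.7% of the members), with Mcm2, Mcm3 and Mcm7 added, where 14.7% of all genes were higher and 14.3% lower. Against PyMT sections 12 members were higher in Neu-NT sections without replicate 3, and 15 without both libraries, where 8.39% and 11.6% of all genes were. All groups share 1 estimate of the spread in the fit, and leaving out both libraries also moved comparisons that hold neither. Ccne2, Dut, E2f1, Gins2, Mcm6 and Prim2 were then lower in PyMT sections than in WT organoids and Rpa1 higher, where 14.2% of all genes were higher and 12.9% lower. E2f1 and Rrm2 were then higher in Neu-NDL than in WT organoids (8.40% of all genes higher). In 6 day PyMT organoids Pold1 was then higher than in WT (7.48% of all genes) and E2f1, Pola2, Pold1 and Prim2 higher than at day 0 (14.3%), while against Neu-NDL organoids Cdt1, Gins4 and Prim2 were higher and Rrm2 lower (10.8% and 13.5%). Without Neu-NT replicate 1 instead, 0 members were higher and 1 was lower than WT, where 7.57% and 4.46% of all genes were, and the median log2 fold change over the members fell from 0.29 to -0.04. Basal markers summed to between 2530 and 3310 CPM in WT organoids and to 134, 85.8 and 2860 CPM in Neu-NT replicates 1 to 3, and macrophage markers to between 170 and 267 against 747, 633 and 1750 CPM; their part in the result was not tested. Neu-NT replicates 1 and 2 differed from each other beyond sampling noise over all genes (chi-square per degree of freedom 45.3). That was the lowest value of any pair of libraries within a group, so they were the most alike. The highest was 565.4, for PyMT day 6 replicates 2 and 3.

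The other genes of the replication pathway were read the same way. Of 49 such genes, among them Orc2 to Orc5, Pold2 to Pold4 and E2f2, E2f3, E2f7 and E2f8, 2 were higher and 2 lower in Neu-NT sections than in WT organoids, 4.08% each way, where 10.5% of all genes were higher and 8.47% lower. Cdc6, which loads the Mcm ring with Cdt1, rose with overlapping libraries (log2 fold change 1.54, adjusted p = 0.0272). Cdc25a, the phosphatase that activates Cdk2, rose without overlap (0.82, adjusted p = 0.0207). Orc3 (-1.03, adjusted p = 0.00798) and Pole3 (-0.82, adjusted p = 0.0226) fell. Without Neu-NT replicate 3 Cdc6 did not pass (0.66, adjusted p = 0.201), while Cdc25a (0.84, adjusted p = 0.0289), Orc3 (-1.24) and Pole3 (-1.28, adjusted p = 0.000154) did. In Neu-NDL organoids Dck, a kinase that salvages deoxynucleosides, rose (1.22, adjusted p = 0.0364) together with Cdc25a (0.87, adjusted p = 0.0399). In PyMT sections Pold4 (-1.36, adjusted p = 0.00532) and Tipin (-0.91, adjusted p = 0.021), a fork protection gene, were lower than in WT organoids. Pold4 and Mcmbp were higher in 6 day than in day 0 PyMT organoids (1.29, adjusted p = 0.00501; 0.45, adjusted p = 0.0356), and without day 6 replicate 3 the count was 9 higher and 1 lower, where 10.3% of all genes were higher and 13.9% lower. Of the 49, 0 were called in 6 day PyMT organoids against WT (9 at an unadjusted p under 0.05), and 0 between day 0 organoids and sections (0 unadjusted). Over the 8 comparisons the share of the 49 called was above that of all genes in 1 case, the genes higher in Neu-NDL than in WT organoids (4.08% against 2.47%). A single gene is 2.04% of the 49. Tipin was also lower in PyMT than in Neu-NT sections (-0.86, adjusted p = 0.0264), and Dck lower in 6 day PyMT than in Neu-NDL organoids (-1.17, adjusted p = 0.0214).

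Some markers of G2 and mitosis rose in 6 day PyMT organoids, where 0 of the 41 replication genes were called against WT organoids and 1, E2f1, against day 0. Of 12 such markers 3 rose against WT organoids and 5 against day 0, where 1.40% and 4.10% of all genes were higher, with median log2 fold changes of 0.84 and 0.94 beside 0.12 and 0.10 for the 41 replication genes. Those 2 values for the replication genes average day 6 and undated libraries, which differed. Their median log2 ratio to the WT mean averaged 0.32 at day 6, -0.08 undated and -0.01 at day 0. The mean log2 CPM of the 12 markers was 6.57 at day 6, 6.66 undated, 5.68 at day 0 and 5.8 in WT organoids. Mki67, a marker of cycling cells, was at 307, 316 and 186 CPM in WT organoids, 594, 550 and 385 at day 6 and 955 and 377 undated. All 6 day libraries lay above those of WT, and of day 0 at 228, 316 and 226 CPM, and the second of these differences passed (log2 fold change 1.18, adjusted p = 0.046). Top2a, the topoisomerase of dividing cells, was at 112, 184 and 134 CPM at day 0, 348, 340.0 and 200.2 at day 6 and 362 and 258 undated, higher without overlap and not past the threshold (log2 fold change 1.08, SE 0.37, adjusted p = 0.0774). Without day 6 replicate 3 the count was 6 of 12 against WT (3.91% of all genes higher) and 12 of 12 against day 0 (10.3%), Top2a included (1.19, adjusted p = 0.029). It was 0 of 12 against day 0 when any of 6 other libraries was left out in turn (0.359% to 2.65% of all genes higher). It was 2 without undated replicate 2 (1.92%) and 0 with only the libraries compared (0.0411%). Against WT it was 0 without WT replicate 2, WT replicate 3 or undated replicate 1 (0.188%, 0.178% and 0.122%). Few genes of any kind passed in these fits. Against WT the basal markers Acta2, Tagln, Myh11 and Cnn1, 4 of 8, were lower (median of the 8 -2.26), while 3 of the 8 had positive log2 fold changes, up to 0.75. Basal sums were 2530 to 3310 CPM in WT and 94.6 to 7440 in 6 day organoids, the highest in day 6 replicate 2. Against day 0 the endothelial, macrophage and lymphocyte markers differed as given with E2f1. There 2 of 8 basal markers were lower, with 4 positive and 4 negative log2 fold changes from -2.56 to 3.83. Of 6 luminal markers 1 was higher, with 3 positive and 3 negative, where 4.10% of all genes were higher and 4.12% lower. Fibroblast markers (7 of 8 negative) and adipocyte markers (6 of 6 negative) had 0 calls. The part of all these cell type markers in the result was not tested, nor was the difference between the 2 sets of genes. In Neu-NT sections the 12 markers had a median log2 fold change of 0.09 against WT and in PyMT sections -0.08, with none called.

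**Figure D5:**
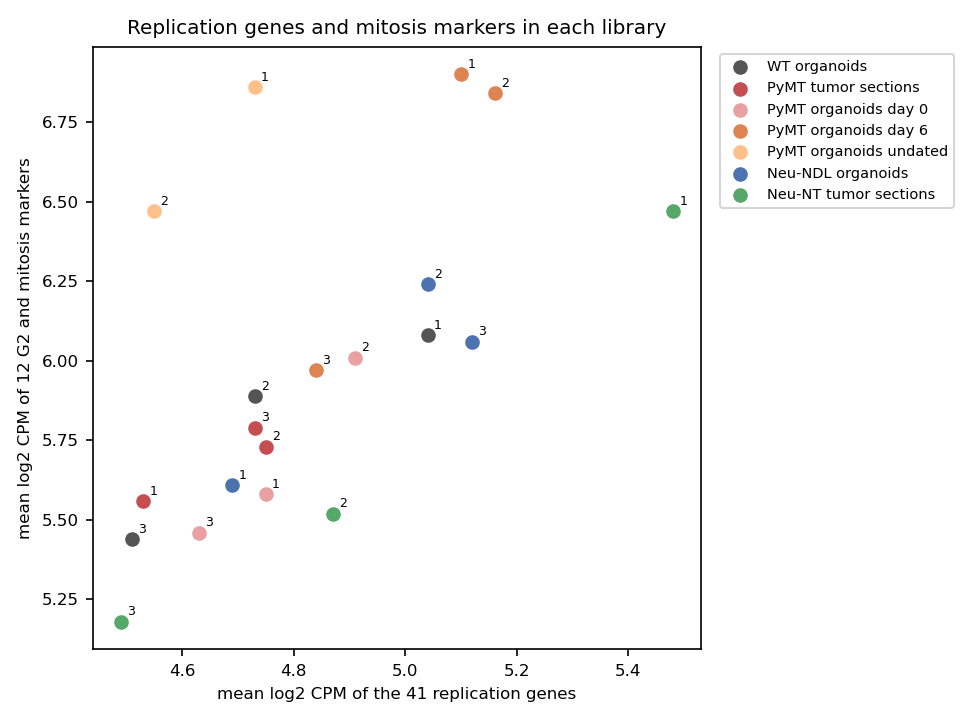
Each point is 1 library (number: replicate), by the mean log2 CPM of the 41 replication genes (x axis) and of 12 G2 and mitosis markers (y axis). Day 6 organoids 1 and 2 and undated organoid 1 stand highest, at 6.90, 6.84 and 6.86, while Neu-NT section 1 stands furthest right at 5.48.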

How the data were processed

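Poly(A) RNA of 20 mouse mammary samples was sequenced; the deposited files hold raw read counts per gene, 1 file per sample. Per the submitters' processing notes, CASAVA, FastQC, STAR, HTSeq, DESeq2 and the mm10 build were used. Their versions and the annotation counted on are not given in the sources used here, nor is whether HTSeq used strand or how it treated overlaps. Of 45318 gene IDs, 44585 were matched to a symbol. Summary lines of HTSeq that name no gene were left out of library sizes.

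Counts were tested with edgeR 4.0.16 in R 4.3.3: TMM scaling, filterByExpr, 1 quasi-likelihood fit over 7 groups (13 residual degrees of freedom), Benjamini-Hochberg adjustment over 18698 genes. CPM are shown without a prior count; mean log2 CPM used a prior count of 2. The fit was tested on simulated counts. Alternatives were DESeq2 1.42.0, RLE scaling, no filter, only the libraries compared, a replicate block, day 6 or undated libraries alone, and leaving out libraries. Gene coordinates came from GENCODE M21 and promoters from RefSeq.

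The members and gene lists were chosen with earlier results of these data known. All libraries' values are given for Pcna, Mcm2, Rrm2, E2f1, the called members (the 2 of smallest p where none was called) and the members of largest and smallest fold change. The main fit did not use replicate numbers, and an alternative used them as a block in every comparison. They were read as tying samples only between day 6 and day 0 PyMT organoids. There all 3 same-numbered pairs had correlated deviations from their group means (0.287, 0.428 and 0.317 across genes). Undated and day 0 organoids of the same number did not (-0.028 and 0), though the block over day 0 and 6 day libraries joins them. The pairing of day 6 with day 0 comes from the data, since the labels do not tie these samples.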

Additional observations from a re-analysis of the deposited data

Results flagged for a closer look

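Among the 5 PyMT organoid libraries with 6 days of culture, 3 members had 1 library far below the other 4, by Dixon's criterion at 95%. Chance gives such a gap in about 1 group in 20, and 41 genes were looked at. Rfc4, a clamp loader subunit, stood at 6.88 CPM in undated replicate 1 and at 20.1 to 23.8 CPM in the other 4. Fen1, the flap nuclease, stood at 0.995 CPM in undated replicate 2 and at 1.67 to 1.91 CPM in the others. Rrm1, the large subunit of ribonucleotide reductase, was at 118 CPM in undated replicate 2 and at 164 to 179 CPM in the others. All 3 low values came from the undated libraries.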

How the results depend on the processing

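Among the members whose fold change is given above, 4 changed sign under some alternative, none of them called: Rrm1 in Neu-NDL against WT (-0.01 with no filter, and -0.11 to 0.15 leaving out 1 library at a time, negative without WT replicate 3, Neu-NDL replicate 2 or Neu-NDL replicate 3), Ccne2 there (-0.14 to 0.20, negative without WT replicate 3), Chaf1a in Neu-NT against WT (-0.24 to 0.41, negative without WT replicate 3 or Neu-NT replicate 1) and Mcm5 in PyMT against Neu-NT sections (-0.52 to 0.19, positive without Neu-NT replicate 1). The other replication genes, the mitosis markers and some of these members were followed through the alternatives after seeing the data. The median log2 fold change over the members moved by less than the spread within groups (SD 0.273), except in Neu-NT sections against WT without Neu-NT replicate 1 (-0.04; range over the libraries left out below). Counts of called members moved more often. By DESeq2, against WT, 6 day PyMT organoids had 1 higher and 1 lower, Neu-NDL organoids 2 higher, PyMT sections 1 higher and 2 lower and Neu-NT sections 5 higher and 2 lower; there were 3 lower in PyMT than in Neu-NT sections, and 2 higher and 2 lower in 6 day PyMT than in Neu-NDL organoids. Without Neu-NT replicate 3 and PyMT day 6 replicate 3, in the same order, they were 1 higher, 2 higher, 1 higher and 6 lower, 13 higher and 0 lower, 15 lower, and 3 higher and 1 lower, and against day 0 the 6 day PyMT organoids had 4 higher. RLE scaling gave 4 higher in Neu-NT sections against WT (11.1% of all genes). With no filter on low counts 0 were higher or lower there (4.71% and 4.24% of all genes) and 0 higher in 6 day against day 0 organoids (1.41%). With only the libraries compared, 1 was higher in Neu-NDL against WT (6.64%), and 1 higher and 4 lower in PyMT sections against WT (14.7% and 14.2%). That setting gave 0 in Neu-NT sections against WT (9.74% and 8.97%), 6 day against day 0 (0.0411% and 0.347%) and PyMT against Neu-NT sections (0.936% and 1.12%). Day 6 libraries alone gave 0 higher against day 0 (0.166%), and summing Neu-NT replicates 1 and 2 gave 0 lower against WT (5.06%).

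With a replicate block and only the libraries compared, 1 member (E2f1) was lower in PyMT sections than in WT organoids, where 11.7% of all genes were lower. In the other 7 comparisons 0 were called. Of all genes, 0% also passed in PyMT against Neu-NT sections and in 6 day PyMT against Neu-NDL organoids. The 0 members there say nothing about these genes. In the rest 0.0294% to 5.52% of all genes were higher and 0.108% to 4.88% lower. For day 6 and day 0 libraries only, chosen after seeing the data, 0 were called with and without the replicate block. Of all genes 0% were higher in both fits, and 0% and 0.0256% lower. Leaving out 1 library at a time gave 0 to 1 higher in Neu-NDL against WT (0.275% to 3.83% of all genes). It gave 0 to 1 lower in PyMT sections against WT (1.32% to 3.78%). In Neu-NT against WT there were 0 to 10 higher (4.99% to 10.9%) and 0 to 1 lower (4.46% to 10.9%). In 6 day against day 0 there were 0 to 1 higher (0.359% to 10.3%), and 0 to 12 lower in PyMT than in Neu-NT sections (1.78% to 8.39%). For 6 day PyMT against Neu-NDL organoids it gave 0 to 1 higher (0.452% to 6.09%) and 0 to 1 lower (0.411% to 10.6%). The median of Neu-NT against WT then ran from -0.04 to 0.48. Over all alternatives, the share of members called was above that of all genes only in some comparisons without Neu-NT replicate 3, alone or with PyMT day 6 replicate 3. The exception was the members lower in PyMT than in Neu-NT sections with no filter (2.44% against 2.06%).

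The counts over all genes moved too: in Neu-NT against WT from 1972 higher and 1583 lower to 2728 and 2656 without the 2 libraries that stood apart, and in 6 day against day 0 PyMT organoids from 766 and 771 to 2650 and 3051, or to 7 and 59 with only the libraries compared. The cause of these moves was not tested. With 2 to 5 libraries a group, intervals reached 0.50 to 0.56 (log2, median) to either side. The smallest difference called among the members was 0.83, and larger ones were also left uncalled, such as Rrm2 at 1.68 in Neu-NDL against WT organoids. Thus 0 calls do not show the absence of differences, below or above that size. Fen1, at 18 to 106 counts a library, was the least deeply counted.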
